A study of Sus scrofa with 14 samples.

Results

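MT1A encodes a metallothionein, and its mRNA was read here in mucosa of the pig small intestine after contact with an onion digest or a control digest. The array held 2 probes whose RefSeq accession belongs to MT1A, A_72_P079681 (the first probe) and A_72_P744498 (the second probe), of 43603 probes in all. Accessions named 6686 of those probes, for 3020 genes. MT1A was selected on its WOd/Sd values, which were among the largest decreases of that comparison in an earlier look at these arrays. Its WOd/Sd values and all values that contain them are therefore given as a description, with no test of a change. The pigs that received YOd played no part in that choice.

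The samples came from the SISP model, in which segments of the small intestine of an anaesthetised pig are closed off in the living animal and perfused. Male piglets of 5 weeks and 8.2 kg, under sevoflurane and nitrous oxide after azaperone, carried 5 pairs of such segments at 31 to 58% of the length of the small intestine, in the jejunum. YOd was a digest of yellow onion and WOd a digest of white onion, both diluted in peptone. Sd was a control digest made with salts in place of onion and with the same enzymes and bile salts, diluted in saline and to another degree, so the diluent and the dilution of the digest also differed between onion and control segments. Each segment was filled with 20 ml, left for 30 min and then perfused for 6 h with 2 ml per 15 min, and mucosa was scraped from its last 10 cm. Pigs 1, 2 and 4 each gave 1 Sd and 1 YOd segment and pigs 5, 6, 7 and 8 each gave 1 Sd and 1 WOd segment, with 1 array per segment. This made 14 arrays (7 Sd, 3 YOd and 4 WOd), and pig 3 was not analysed here. In scrapings of a whole mucosa, fewer cells of a type and less RNA per cell cannot be told apart.

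Metallothioneins are small proteins rich in cysteine that bind zinc, copper and cadmium. Their genes are switched on by the zinc-sensing transcription factor MTF1 when free zinc in the cell rises, and also by glucocorticoids and oxidative stress. In the small intestine, metallothionein in enterocytes takes part in holding zinc and copper that enter from the lumen. In the Sscrofa11.1 reference, MT1A lies at the end of a run of metallothionein genes that holds MT4, MT3, MT-2B, MT1D and the unnamed loci LOC100739663 and LOC102166944, and it is followed by the nucleoporin gene NUP93. Of these metallothionein loci, MT3 had 1 named probe, MT1A had 2 and the others had none. Whether the MT1A probes also bind mRNA of close relatives in that run was not tested.

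The arrays measured MT1A well inside their range. The processed signal, an intensity on a linear scale after subtraction of the background, ran from 5385 to 38139 for the first probe and from 1733 to 31930 for the second, over a local background of 19 to 24 and of 19 to 22. Both probes were well above background on 14 of 14 arrays and saturated on 0. The brightest median spot intensity reached 55.8% of the saturation value of the scanner for the first probe and 56.8% for the second. Each probe had 1 spot per array, and 0 of these spots were marked as outliers themselves. The local background of the first probe was marked as an outlier on 1 array, the Sd array of pig 7, and that spot was kept. Levels below are log2 of the signal after division by the array's 75th percentile, so that 1 unit is a doubling. The first probe had the higher mean and stood for the gene in the fits.

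Without onion, the level of MT1A varied widely between the Sd segments. Each pig gave 1 Sd segment on 1 array, so pig, segment position and slide cannot be fully told apart in this spread. The Sd level of the first probe was lowest in pig 5, at 4.13, had a median of 5.52 and was highest in pig 1, at 6.40 (mean 5.51 ± 0.76, SD, n = 7), a range of 4.85-fold. The SD of 0.76 was above that of 89.9% of the 2182 genes that were above the floor on every array, for which the median SD was 0.384. Pig 5 stood apart at the low end. From the highest to the lowest level the order was pigs 1, 6, 2, 4, 7, 8 and 5, with steps of 0.14 to 0.49 between the first 6 and a last step of 1.02. Neighbours among the first 6 differed by less than the SD over the 7 pigs, and without pig 5 the SD was 0.49.

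The second probe put the pigs in much the same order. Its Sd level was 2.30 in pig 5 and lay between 4.75 and 6.03 in the other 6 pigs (mean 4.78 ± 1.17, SD, n = 7), a range of 13.2-fold. Pig 6 ranked highest and pig 1 ranked 4 on this probe, and the remaining pigs kept their sequence. The Sd arrays of pigs 1 and 5 lay on slides 2 and 4, where the second probe was lowest relative to the first, as described below.

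**Figure D1:**
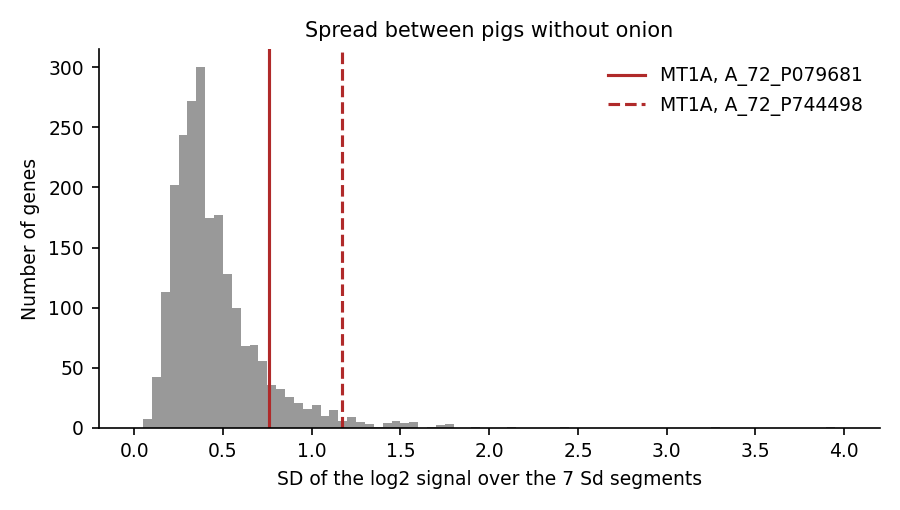
Number of named genes (y axis) by the SD of their log2 level over the 7 Sd segments (x axis), for the 2182 genes above the floor on every array. The red lines mark the MT1A probes, at 0.76 for the first probe (solid) and 1.17 for the second (dashed), both to the right of most genes.

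For YOd/Sd, the question was whether MT1A changed with the yellow onion, and it did not move the same way in the 3 pigs. In pig 1, the level of the first probe was 6.40 in the Sd segment and 5.23 in the YOd segment. In pig 2 it was 5.75 and 5.96, and in pig 4 it was 5.52 and 5.82. Pig 1 was thus lower with YOd, while pigs 2 and 4 were slightly higher, and the YOd and Sd levels overlapped. The log2 ratios of YOd over Sd were -1.17 in pig 1 (0.444-fold), 0.22 in pig 2 (1.16-fold) and 0.30 in pig 4 (1.23-fold). The second probe gave -1.24, 0.12 and 0.08 in the same order. Pig 1 stayed at -1.17 or lower in each of 6 ways of making the values, with both probes. Pig 2 kept its sign as well, but was at 0.0019, or no change, on the second probe without scaling between arrays. The way with a lower floor for weak signals cannot change MT1A values. The sign of pig 4 turned to -0.33 on the first probe without scaling between arrays, and on the second probe to -0.55 without scaling, -0.05 with quantile normalization and -0.06 with the normexp background correction.

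Over the 3 pigs, the log2 YOd/Sd ratio of MT1A was -0.22 ± 0.83 (SD), and limma with the pig as a block gave a standard error of 0.30, a raw p of 0.488 and an adjusted p of 0.703 over 2464 genes. The 95% confidence interval from that fit ran from -0.93 to 0.49, that is from 0.526-fold to 1.41-fold. For its standard error, limma draws the variance of each gene toward that of the other genes. How the SD of 0.83 over the 3 YOd pigs ranks among genes was not measured. The interval is too narrow for a gene whose true variance exceeds the value it is drawn to. A fall or rise of MT1A beyond its bounds was therefore not excluded. On the second probe the ratio was -0.34 ± 0.77 (SD, n = 3), with a limma adjusted p of 0.566 over 26397 probes. The limma interval of that probe, with its variance drawn toward that of other probes, ran from -1.04 to 0.35. In this comparison, 4.63% of the genes tested (114 of 2464) met the rule for an affected gene, which was a raw p under 0.05 together with a change of more than 1.5-fold, and MT1A was not among them. No gene had a limma adjusted p below 0.05 in that fit, against 276 with a raw p below 0.05, whereas 113 did with the slide as a block beside the pig and 77 did without pig 2. The fits with the slide block and without pig 2 rest on the same ratios within pigs, as only pig 2 spanned slides here. The median log2 ratio over all genes was 0.14, and it became -0.16 without scaling between arrays. Relative to that median, MT1A lay at -0.36, and between -0.36 and -0.40 under the other scalings. With the authors' processed values it lay at -0.32. Pig 1 decided the sign of the mean, which was 0.26 without it.

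With WOd, the level of MT1A was lower than in the Sd segment of the same pig in 4 of 4 pigs, which is the pattern MT1A was chosen by. The first probe read 4.13 in the Sd segment and 3.72 in the WOd segment of pig 5. It read 6.24 and 5.14 in pig 6, 5.38 and 4.82 in pig 7, and 5.15 and 3.60 in pig 8. As groups the Sd and WOd levels overlapped, since pig 5 was lower in its Sd segment than pigs 6 and 7 were in their WOd segments. The log2 ratios were -0.41 in pig 5 (0.753-fold), -1.10 in pig 6 (0.468-fold), -0.56 in pig 7 (0.677-fold) and -1.55 in pig 8 (0.342-fold). Their mean was -0.90 ± 0.52 (SD, n = 4), a level 0.535-fold that of Sd. The second probe gave -0.22, -1.23, -1.62 and -1.61 in pigs 5, 6, 7 and 8, with a mean of -1.17 ± 0.66 (SD, n = 4). Each of these ratios stayed below 0 in the 6 ways of making the values, of which the way with a lower floor cannot change MT1A. For orientation, 1.18% of the genes tested in WOd/Sd (29 of 2467) were called, and nothing about MT1A is read from that share.

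**Figure D2:**
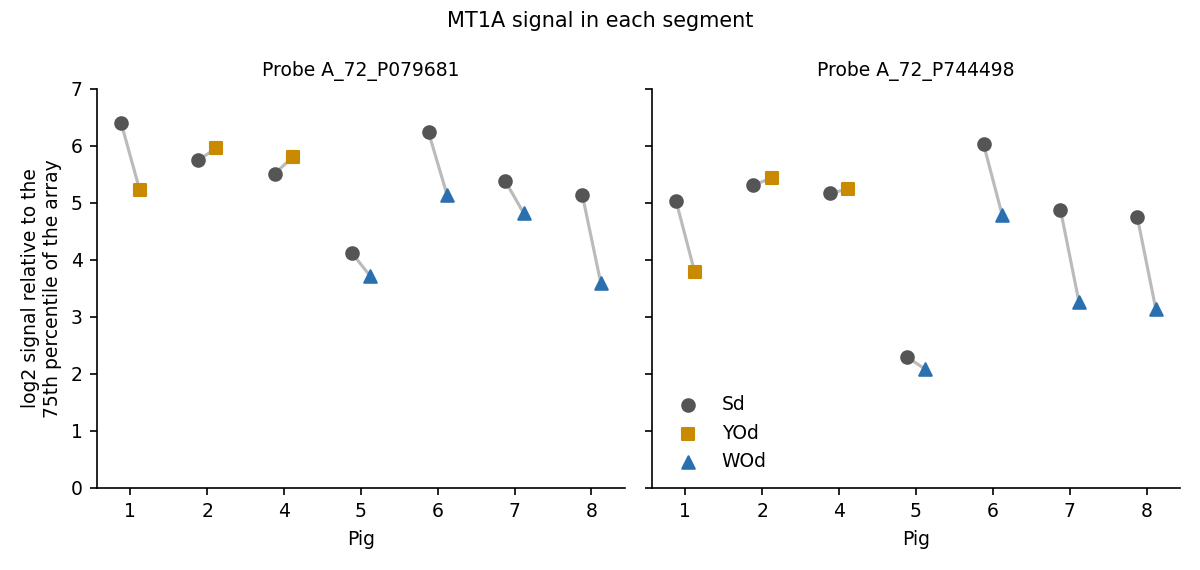
MT1A level of each segment (y axis, log2 of the signal relative to the 75th percentile of the array) by pig (x axis), for the first probe (left) and the second probe (right). Grey circles are Sd, yellow squares YOd and blue triangles WOd, and a line joins the segments of a pig. The WOd triangle lies under the Sd circle in pigs 5 to 8, whereas the YOd square lies under it in pig 1 only, and pig 5 is low in both segments.

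Over the 7 pigs, the log2 ratio of onion over Sd was -0.61 ± 0.70 (SD), with 5 of 7 pigs below 0. The YOd ratio minus the WOd ratio was 0.69, with a standard error of 0.54 from the spread between pigs. It was 1.16 (SE 0.26) without pig 1 and 0.43 (SE 0.74) without pig 4. The ratio of pig 1, on YOd, lay among those of the WOd pigs, so the onions overlapped. The SD of the ratio over the 7 pigs was above that of 93.0% of the 2182 genes above the floor on every array, whose median was 0.320.

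**Figure D3:**
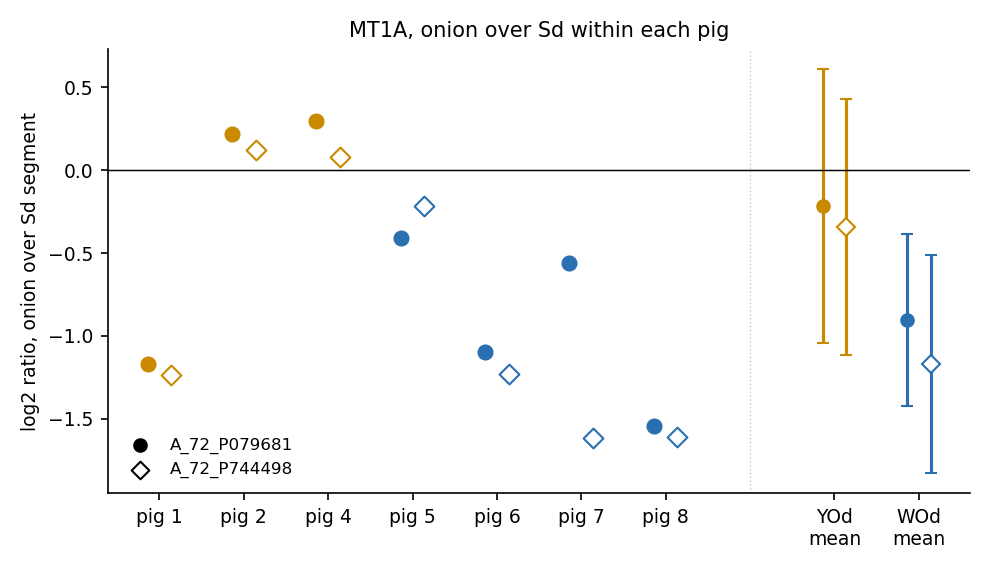
Log2 ratio of onion over Sd segment (y axis) in each pig and as the mean per onion with its SD (x axis; 3 YOd pigs in yellow, 4 WOd pigs in blue). Filled circles are the first probe and open diamonds the second, and 0 is no difference. The probes lie close together in 6 pigs and apart in pig 7 (-0.56 and -1.62).

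The probes of MT1A differed from each other by an amount that went with the slide. The files name the slide on which each array lay, and the 14 arrays lay on 5 slides, of which slide 5 was scanned in a later session. The log2 signal of the first probe minus that of the second averaged 0.48 on slide 1 (Sd and YOd of pig 4, YOd of pig 2), 0.35 on slide 3 (both segments of pigs 6 and 8) and 0.47 on slide 5 (Sd of pigs 2 and 7). It averaged 1.41 on slide 2 (both segments of pig 1) and 1.67 on slide 4 (both segments of pig 5, WOd of pig 7). The single arrays ran from 0.21 to 0.57 on slides 1, 3 and 5 and from 1.38 to 1.83 on slides 2 and 4, with no overlap. Within pig 7 the difference was 0.50 in the Sd segment, on slide 5, and 1.55 in the WOd segment, on slide 4.

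Slide accounted for 97.6% of the variance of that difference over the 14 arrays. Among 1091 genes with 2 probes or more, compared in the same way, the median was 44.0% and 99.4% of the genes were lower than MT1A. Slide and pig largely run together here, and pig accounted for 86.1%, against a median of 66.8%. What sets the difference was not tested. Across the 14 arrays the probes still went together (r = 0.90, a description over 7 pairs of arrays that share a pig).

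**Figure D4:**
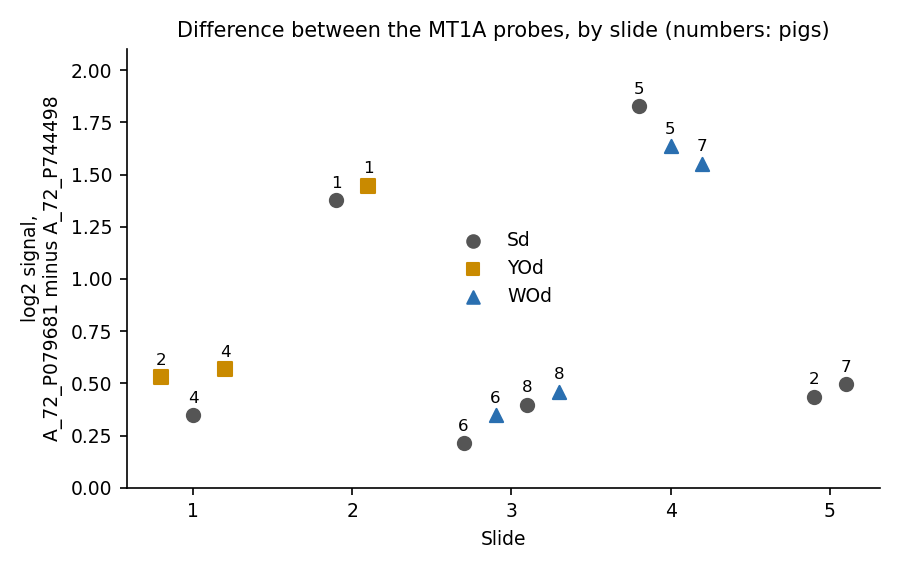
Log2 signal of the first MT1A probe minus that of the second (y axis) for each array, placed by slide (x axis) and marked with its pig. Arrays on slides 2 and 4 lie above 1.37 and those on slides 1, 3 and 5 below 0.57, and the Sd and WOd arrays of pig 7 fall on different sides.

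Only pigs 2 and 7 had their segments on different slides, and the values within a slide do not use them. Within slide 3, the WOd/Sd log2 ratios of the first probe were -1.10 in pig 6 and -1.55 in pig 8, and within slide 4 the ratio was -0.41 in pig 5. The mean over these 3 pigs was -1.02, against -0.90 with pig 7. For YOd/Sd, the ratio was -1.17 in pig 1 within slide 2 and 0.30 in pig 4 within slide 1, with a mean of -0.44. With the slide as a block beside the pig, MT1A had a limma adjusted p of 0.367 in YOd/Sd.

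Other genes of metal handling with a probe were read beside MT1A. MT3, a metallothionein best known from the brain, had a log2 ratio of 0.21 (SE 0.14) in YOd/Sd and 0.09 (SE 0.19) in WOd/Sd, and passed neither test (limma adjusted p of 0.440 and 0.998). Its YOd/Sd value turned to -0.10 without scaling between arrays. Of a list of 25 genes of zinc sensing and zinc transport, 9 had a probe and 8 could be tested. None of the 8 was called in YOd/Sd or in WOd/Sd, where 4.63% and 1.18% of all genes were called, so that a count of 0 among so few genes sets them apart from no other genes. The log2 ratios lay with 5 above and 3 below 0 in YOd/Sd (median 0.08, against 0.14 over all genes) and 3 above and 5 below 0 in WOd/Sd (median -0.09, against 0.04). SLC30A1 exports zinc from the cell and is, like MT1A, a target of MTF1. Its log2 ratio was -0.28 (SE 0.15, limma adjusted p = 0.387) in YOd/Sd, below 0 in 3 of 3 pigs and past the thresholds only without scaling between arrays (-0.59, adjusted p = 0.568), and -0.10 (SE 0.22, limma adjusted p = 0.998) in WOd/Sd, where pigs 5 and 7 were above 0 and pigs 6 and 8 below it. MTF1 and SLC39A4, the importer that takes up dietary zinc, had no named probe.

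Of 24 genes of copper and iron handling, 15 had a probe. The ferritin genes FTH1 and FTL, named here after their values were seen, were saturated on 14 of 14 arrays and gave no usable ratio. Of the others, none was called in YOd/Sd (12 tested, median 0.24, against 0.14 over all genes) or in WOd/Sd (13 tested, median -0.01, against 0.04). With 4.63% and 1.18% of all genes called, a count of 0 among so few sets these genes apart from no other genes. Of 11 genes that respond to glucocorticoids, 5 had a probe and none was called with either onion (median 0.00 in YOd/Sd, against 0.14 over all genes, and 0.03 in WOd/Sd, against 0.04), which again is a count too small to read against 4.63% and 1.18%. Of 8 genes that respond to the oxidative stress factor NRF2, 4 had a probe and 2 of these were called higher in YOd/Sd, a share to be read beside the 4.63% of all genes. HMOX1, which degrades haem, rose by 0.69 (SE 0.23) and NQO1, a quinone reductase, rose by 0.90 (SE 0.25), both with a limma adjusted p of 0.387 and higher in 3 of 3 pigs. These calls were held in 7 of 14 alternatives for HMOX1 (0.35 to 0.87) and in 8 of 14 for NQO1 (0.59 to 1.28), and neither gene was called without scaling between arrays, without pig 4 or with the authors' processed values. Among the alternatives that held them, the slide as a block, the pigs on 1 slide and leaving out pig 2 gave the same estimates (0.87 and 1.28). Those alternatives are thus not separate support, and their estimates rest on pigs 1 and 4 only. The limma adjusted p was 0.00942 for NQO1 and 0.0871 for HMOX1 with the slide as a block. Without pig 2 it was 0.0187 for NQO1 and 0.115 for HMOX1. Neither gene was called in WOd/Sd, where the log2 ratios were 0.10 (SE 0.16) for HMOX1 and 0.54 (SE 0.50) for NQO1. Without pig 7, NQO1 was called in WOd/Sd as well, at 1.27 (SE 0.20, limma adjusted p = 0.0963). The slide as a block gave the same estimate (1.27, limma adjusted p = 0.0837). Only pig 7 spanned slides in that comparison, so this too is not separate support. The difference between the onions had a raw limma p of 0.0713 for HMOX1 and 0.622 for NQO1.

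**Figure D5:**
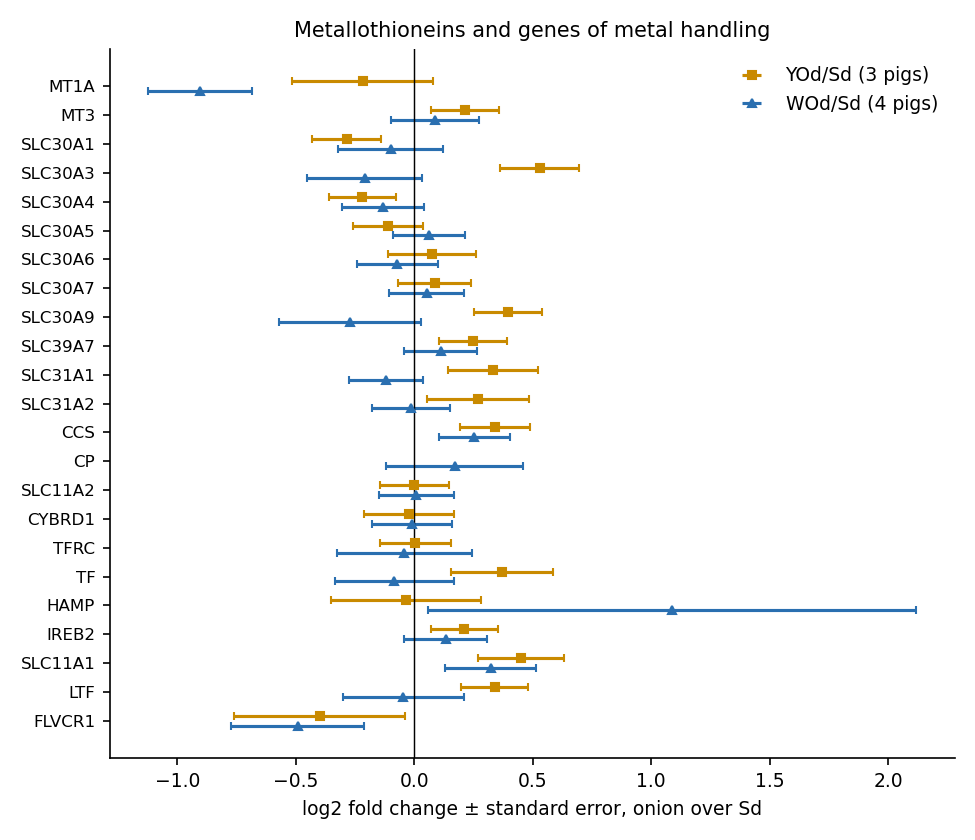
Log2 fold change of onion over Sd with its standard error (x axis) for the metallothioneins and the zinc, copper and iron genes with a usable probe (y axis), in YOd/Sd (yellow squares, 3 pigs) and WOd/Sd (blue triangles, 4 pigs). MT1A in WOd/Sd, at -0.90, is the value it was chosen by and has no test. HAMP in WOd/Sd, at 1.09 (SE 1.03), lacks a value for pig 5. Its ratio was 4.54 in pig 7 and below 0 in pigs 6 and 8. CP has no YOd/Sd value.

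The genes whose level followed that of MT1A most closely over the 14 arrays, among 2181 named genes above the floor on every array, were LGALS2 (r = 0.80), FRA10AC1 (0.78), TSPO (0.75), MSMB (0.75) and VNN1 (0.68). LGALS2 encodes a galectin, TSPO a protein of the outer mitochondrial membrane and VNN1 the enzyme pantetheinase. On the second probe, these genes ranked 4, 1, 2, 6 and 14. The genes whose ratio of onion over Sd followed that of MT1A over the 7 pigs were PIWIL1 (r = 0.95), IRF9 (0.88), NR2F2 (0.88), SLC38A6 (0.87) and BCL10 (0.87). On the second probe they ranked 38, 50, 109, 51 and 83, so that ranking rested on the choice of probe. IRF9 encodes a transcription factor of the interferon response and NR2F2 a nuclear receptor. The arrays share pigs and slides, and the correlations are descriptions. VNN1 was also the gene of the first set with the highest r of the ratios (0.77). For LGALS2, FRA10AC1, TSPO and MSMB the r of the ratios was -0.15, 0.44, 0.41 and 0.49. In the second set, the r of the levels was 0.53 for PIWIL1, 0.47 for IRF9, 0.17 for NR2F2, 0.004 for SLC38A6 and 0.34 for BCL10.

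The tissue label was checked on markers. Of 11 enterocyte markers, 6 had a probe, and all 6 were well above background on 14 of 14 arrays, with each saturated on at least 1 array. Saturation compresses their ratios, so the mean log2 ratio of onion over Sd of these markers, which was within -0.11 to 0.61 in the 7 pigs, is not set against that of MT1A. None of 2 crypt and cycling markers with a probe, of 7, was saturated. Their mean level ran from 0.85 to 1.82 in Sd, from 0.96 to 1.76 in YOd and from 0.83 to 1.39 in WOd segments, and their mean ratio was lowest in pig 8, at -0.58. Lymphocyte markers (7 of 9 with a probe) ran from -2.72 to -1.30 in Sd, from -2.32 to -1.44 in YOd and from -2.97 to -1.45 in WOd segments, with a ratio that averaged 0.25 in the YOd pigs and -0.44 in the WOd pigs and was -1.46 in pig 6. Only 4 of these 7 markers were well above background on every array, so their mean includes weak signals. Smooth muscle markers (3 of 6) ran from 2.38 to 3.50 in Sd, from 2.42 to 3.61 in YOd and from 1.62 to 3.08 in WOd segments, with ratios of -0.52 in pig 6 and -0.76 in pig 7. The mean ratios in YOd and WOd pigs were -0.05 and 0.25 for goblet markers (2 of 6), 0.47 and 0.18 for Paneth markers (2 of 5, both saturated on some array), 0.26 and 0.02 for enteroendocrine markers (5 of 7) and 0.21 and 0.05 for myeloid markers (3 of 5). None of 4 erythrocyte markers had a probe. The part of these cell types in the MT1A values was not tested. Of the 14 arrays, 50.6% to 70.7% of the probes were well above background and 546 to 964 probes were saturated, and the number of arrays limits the precision.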

How the data were processed

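The authors deposited 1-colour scanner files made with Feature Extraction 10.7.3.1, which hold for each spot a processed signal, a median intensity, a local background intensity and flags, and a table of log2 values for 28369 probes, for which the flooring and log2 steps are stated but the normalization is not. Spots flagged as non-uniform or population outliers were left out (a flag on the local background alone removed none), spots of a probe averaged, each array scaled to its own 75th percentile, and low values raised to the 40th percentile of all arrays pooled (log2 value -4.43). A gene was read from its brightest probe on average. The Sscrofa11.1 reference gave names and the order of genes only. For YOd/Sd and WOd/Sd, limma 3.58.1 (R 4.3.3) was run with a term for each pig, as same-numbered segments came from the same pig (r from 0.455 to 0.757 after removal of the group means), and p-values were adjusted by Benjamini and Hochberg. The fits were tested on simulated data. Other steps ran in Python 3.11.15.

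MT1A, the gene lists and the markers were chosen with earlier results of these data known. The genes named are the metallothioneins with a probe, MTF1, SLC30A1, SLC39A4, HMOX1, NQO1, list members called, and the 5 genes most like MT1A in level or in ratio. Alternatives covered the scaling, background, floor, filter, choice of probe, the authors' log2 values, the block, the slide and each pig left out. The reading of MT1A from its second probe was added after the data were seen.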

Additional observations from a re-analysis of the deposited data

Results flagged for a closer look

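Among 64 tests for a pig far from the others of its group, of which chance marks about 1 in 20, 7 were positive. These tests include MT1A values of the pigs by which it was chosen, so its result among them is a description. For the second MT1A probe, the Sd level of pig 5 was 2.30 against 4.75 to 6.03 in the other pigs, a gap of 0.658 of the whole range, whereas the first probe did not pass this test. The Sd level of FLVCR1, a haem exporter, was -2.70 in pig 4 against -1.46 to -0.83 (gap 0.664), and that of HSD11B2, which inactivates cortisol, was -3.20 in pig 7 against -2.38 to -1.78 (gap 0.576). The other 4 were WOd/Sd log2 ratios. For the zinc transporter gene SLC30A3, pig 7 had -1.11 against 0.03 to 0.18 (gap 0.881). For FLVCR1, pig 8, which also had the lowest MT1A ratio on the first probe, had -1.60 against -0.17 to -0.04 (gap 0.912). For HMOX1, pig 5 had 0.43 against -0.04 to 0.01 (gap 0.903). For NQO1, pig 7 had -1.65 against 1.16 to 1.49 (gap 0.897). The YOd ratio minus the WOd ratio had a raw limma p below 0.05 in 0 of 33 listed genes.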

How the results depend on the processing

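The log2 WOd/Sd ratio of MT1A stayed below 0 in 17 alternatives (-1.17 to -0.69), as did onion over Sd in all pigs in 20 (-0.82 to -0.45), and the YOd ratio minus the WOd ratio stayed above 0 in 20 (0.41 to 1.16, the highest without pig 1). The lower floor, the filters, the fit over every probe and leaving out the replicate block could not change these MT1A values (-0.90, -0.61 and 0.69). The same holds for YOd/Sd (-0.22). The slide as a block, the pigs on 1 slide and leaving out pig 7 gave the same WOd/Sd value (-1.02). The counts of alternatives are therefore not counts of separate checks. In YOd/Sd, MT1A ranged from -0.53 to 0.26 over 16 alternatives with limma adjusted p from 0.367 to 0.997, and its sign turned only without pig 1. Leaving out 1 pig gave -0.48 to 0.26. Without the replicate block, which sets the pairing aside, MT1A in YOd/Sd was -0.22 (SE 0.32, adjusted p = 0.997). The SD over Sd segments was 0.49 to 0.83 with 1 pig left out, lowest without pig 5, and 1.17 on the second probe.

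The number of genes called in YOd/Sd, 114, became 63 with quantile normalization, 12 with normexp, 20 with no filter, 1300 over every probe, 6 with the authors' processed values, 20 without the replicate block, 329 with the slide as a block, 329 in pigs on 1 slide, and 57 without pig 1, 59 without pig 4 and 329 without pig 2. Without scaling between arrays, 7 rose and 95 fell, against 90 and 24 with it. The number called in WOd/Sd, 29, became 6 with normexp, 54 with the 20th percentile as floor, 17 with no filter, 339 over every probe, 10 with the authors' values, 10 without the replicate block, 91 with the slide as a block, 89 in pigs on 1 slide and 56, 44, 89 and 46 without pig 5, 6, 7 or 8. In YOd/Sd, the slide as a block, the pigs on 1 slide and leaving out pig 2 rest on the same ratios within pigs. In WOd/Sd the same holds for pig 7. Over every probe, 1300 of 26397 probes were called in YOd/Sd and 339 of 26099 in WOd/Sd. These are counts of probes and are not set against the gene counts. The cause of the shifts in the gene counts was not tested.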
